A study of Mus musculus with 4 samples.

Results

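The genes described here are the secreted WNT ligands of the mouse, the proteins that make, receive and restrain them, and a few genes commonly read as WNT targets. They were chosen by name: every gene whose symbol begins as a Wnt or Fzd gene, the R-spondins Rspo1 to Rspo4, the Dickkopf genes Dkk1 to Dkk4, the Sfrp genes, Lgr4 to Lgr6, and Wls, Porcn, Lrp5, Lrp6, Notum, Wif1, Axin2, Lef1, Tcf7, Nkd1, Rnf43 and Znrf3. This gave 56 of the 45706 genes in the table. Of these, 49 reached 1 CPM (CPM is the count scaled to the size of its library) in at least 1 library, 34 reached 10 CPM, and 7 stayed under 1 CPM throughout (Wnt1, Wnt2, Wnt7a, Wnt8a, Wnt8b, Rspo2 and Dkk4).

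RNA was sequenced from regenerating mouse digit tips at 14 days post amputation. The 4 genotypes had 1 library each: wildtype, a conditional knockout (cKO) of Sp6, one of Sp8, and one of both genes (Sp6+Sp8 cKO, here the double cKO). Where 4 values are given in a row below, they follow that order. Sp6 and Sp8 are zinc-finger transcription factors of the SP family, expressed in epidermis. Per the labels' protocols, cKO mice got tamoxifen at 75 mg/kg on each of 5 days and then rested 5 days until the amputation. The Cre driver, strain, age, sex, animals pooled per library and any tamoxifen given to wildtype mice are not stated in the labels, nor is it stated whether the distal or the middle phalanx was cut. In the labels the cKO libraries carry batch 1 and the wildtype library batch 3, so a difference from wildtype and a difference between batches cannot be told apart. Counts summed to between 12588511 (Sp8 cKO) and 21834883 (wildtype) per library. Sp6 stood at 97.7, 29.2, 95.6 and 57.8 CPM, and Sp8 at 63.9, 66.1, 16.8 and 13.4 CPM, so neither targeted transcript was absent and Sp6 in the double cKO was 1.69-fold below wildtype, short of the size rule. Markers of basal keratinocytes, nail matrix, fibroblasts and osteoblasts were all at or above 1 CPM in every library, while summed muscle markers stayed between 0.138 and 0.635 CPM.

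WNT proteins are lipid-modified by the acyltransferase Porcn and carried to the cell surface by Wls. They bind Frizzled receptors together with the co-receptors Lrp5 and Lrp6, which stabilises beta-catenin and lets it act with TCF and LEF factors on target genes, while Wnt4, Wnt5a, Wnt5b and Wnt11 are often counted as acting without beta-catenin. R-spondins, through Lgr4 to Lgr6, hold back the ubiquitin ligases Rnf43 and Znrf3, which otherwise clear Frizzled receptors from the surface. In the digit, the nail epithelium is a known source of WNT signals that mouse digit tip regrowth needs, Lgr6 is a known marker of nail stem cells, and RSPO4 and FZD6 are known nail disorder genes in people.

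With 1 library per genotype there is no replicate check, and no difference below was tested against variation between animals. Genes were counted by a size rule instead: at least 2-fold in either direction (log2 ratio of 1, with a prior count of 2), at least 1 CPM in 1 of the 2 libraries, and an exact 95% interval of the ratio, from counting error only, that excluded 1. In bulk tissue, fewer cells of a type and less RNA per cell cannot be told apart.

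The WNT genes as a group differed little between the genotypes, and the few that passed the size rule were low-abundance ligands, a receptor and an inhibitor. Against wildtype, 1 of 48 measured WNT genes passed in Sp6 cKO (2.08%, against 4.40% of all genes), 1 of 49 in Sp8 cKO (2.04%, against 3.82%) and 3 of 47 in the double cKO (6.38%, against 5.79%). Within batch 1, 4 of 48 passed in the double cKO against Sp6 cKO (8.33%, against 3.97%), 2 of 49 in the double cKO against Sp8 cKO (4.08%, against 4.68%) and 0 of 49 in Sp8 cKO against Sp6 cKO (all genes 3.10%). All 11 of these calls, from 5 genes, were lower and 0 higher in the first-named library. In the order just given, the share of all genes called lower was 2.16%, 1.55%, 2.95%, 2.08%, 2.80% and 1.35%. The members' shares were below those of all genes in the single knockouts against wildtype, on 1 gene each. In the double cKO they were above them against wildtype and Sp6 cKO, on 3 and 4 genes, and below against Sp8 cKO, on 2 genes. Median log2 ratios of the WNT genes to wildtype were -0.06, 0.01 and -0.03 for the single cKO of Sp6, that of Sp8 and the double cKO, where the medians of all genes were -0.01, -0.01 and -0.02.

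Of the 34 WNT genes of at least 10 CPM, 0 passed the size rule in any of the 6 comparisons. Among all genes that reached 10 CPM in the higher library, the share past the rule was 1.75%, 1.29% and 2.49% against wildtype and 1.47%, 1.94% and 0.936% within batch 1, in the order given above. Over the 4 libraries, the highest CPM of these 34 genes exceeded the lowest by a median of 1.195-fold, from 1.03-fold to 1.67-fold, and the median over 10641 genes of that abundance with no count of 0 was 1.22-fold. The 34 abundant genes therefore varied about as much between libraries as other genes of that abundance.

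**Figure D1:**
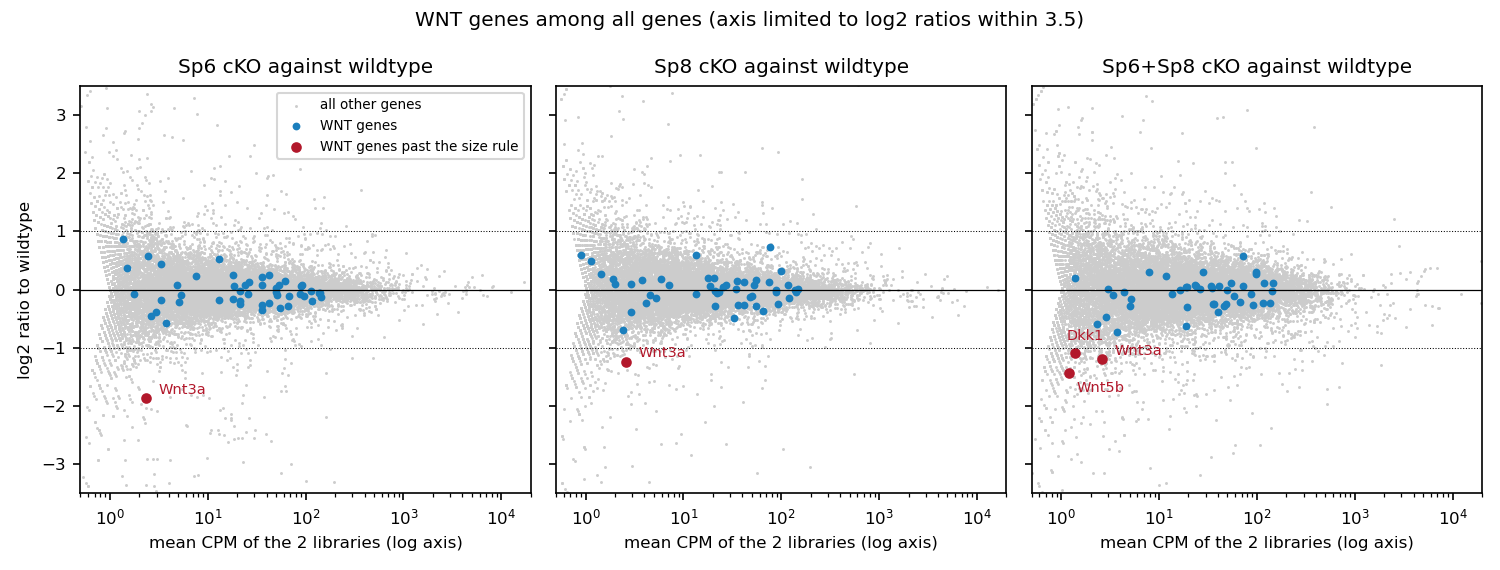
Each panel plots the log2 ratio of 1 cKO library to wildtype (vertical axis) against the mean CPM of the 2 libraries (horizontal axis, log scale), with grey points for all other genes, blue for measured WNT genes and red for WNT genes past the size rule; dotted lines mark log2 ratios of 1 and -1. Wnt3a lies below the lower line in all 3 panels, at -1.86, -1.24 and -1.19, and the red points all lie at the low-CPM end.

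Among the ligands, Wnt4, Wnt10a and Wnt5a led, and Wnt3a was the 1 ligand that passed the size rule in each comparison with wildtype. Levels between genes were compared per kilobase of annotated exon. In wildtype, Wnt4 stood at 17.3 CPM per kb, Wnt10a at 15.9, Wnt5a at 12.9, Wnt3 at 7.45 and Wnt7b at 5.36, and the other 9 measured ligands lay between 0.153 (Wnt9b) and 1.66 (Wnt2b). The first 3 kept the first 3 places in every library, although Wnt10a and Wnt4 were nearly level in Sp8 cKO, at 13.3 and 13.4 CPM per kb. Summed over the 19 ligand genes, the level was 69.1, 60.2, 58.6 and 57.2 CPM per kb, highest in wildtype. That order held for the 15 ligands often counted as acting through beta-catenin only as far as wildtype being highest (36.9, 32.1, 32.3 and 30.3 CPM per kb), and so it did for the 4 others (32.2, 28.0, 26.3 and 26.9). Most ligands shared this small offset: the log2 ratio to wildtype was below 0 for 10 of 13 measured ligands in Sp6 cKO, 9 of 14 in Sp8 cKO and 11 of 13 in the double cKO, with medians of -0.22, -0.18 and -0.27. Of all measured genes, 8701 of 16884, 8727 of 16878 and 8750 of 16861 lay below 0 in the same order. All 3 comparisons share the wildtype library. The sum of basal keratinocyte markers, a list of 8 genes, was also highest in wildtype, at 6700 CPM against 6064, 6143 and 6109. Within that list Krt5 was highest in the double cKO and Krt15 in Sp8 cKO. The sum of nail matrix and hair shaft markers was highest in Sp8 cKO instead, at 4456, 4593, 5118 and 2338 CPM. The part of these cell types in the ligand levels was not tested.

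**Figure D2:**
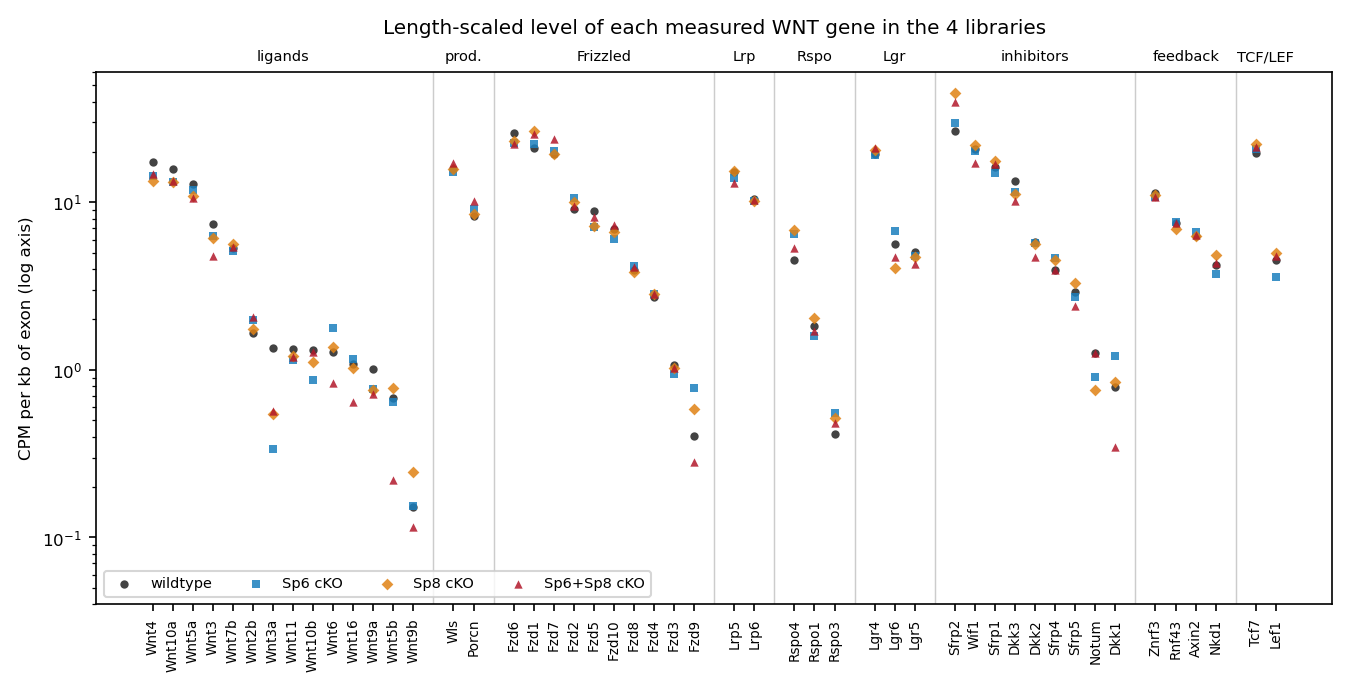
Each point is the level of 1 measured WNT gene in 1 library, in CPM per kilobase of exon (vertical axis, log scale), with genes along the horizontal axis grouped by role and ordered by their wildtype level. The 4 libraries nearly coincide for most genes above 2 CPM per kb, and they spread apart for Wnt3a, Wnt5b, Fzd9 and Dkk1.

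Wnt3a (ENSMUSG00000009900, GRCm38 chromosome 11, 59248033 to 59290752, minus strand), a ligand that acts through beta-catenin, was the WNT gene with the largest ratio in Sp6 cKO. It had 81 counts in wildtype (3.73 CPM), 12 in Sp6 cKO (0.930 CPM), 19 in Sp8 cKO (1.51 CPM) and 24 in the double cKO (1.56 CPM). Wildtype was high and the 3 cKO libraries were low, and the exact Poisson 95% interval of wildtype (2.96 to 4.63 CPM) overlapped none of theirs, whose highest upper bound was 2.36 CPM. Wnt3a was 4.004-fold lower in Sp6 cKO than in wildtype (95% interval 2.17 to 8.07), 2.47-fold lower in Sp8 cKO (1.49 to 4.31) and 2.39-fold lower in the double cKO (1.499 to 3.94). These ratios share the wildtype count, and none of the comparisons within batch 1 passed the size rule. The double cKO against Sp6 cKO stood at a ratio of 1.68 with a 95% interval of 0.806 to 3.68, so the double cKO could not be placed above or below the single one at this depth. Wnt9a, the neighbouring ligand gene, which lies 16175 bases away, had log2 ratios to wildtype of -0.38, -0.39 and -0.46 and did not pass the size rule.

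Upstream sequence is shown for Wnt3a and Wnt6, the genes past the size rule with a single RefSeq start that lies within 1 base of the GENCODE gene start, because the deleted factors belong to the SP family, whose members are known to bind GC boxes. The 250 bases before the RefSeq start (GRCm38.p6) are printed 5′ to 3′ on the gene's strand, and capitals mark the GC box GGGCGG, read on either strand (CCGCCC on the other), overlapping matches included.
Wnt3a (chr11:59290752-59291001, minus strand): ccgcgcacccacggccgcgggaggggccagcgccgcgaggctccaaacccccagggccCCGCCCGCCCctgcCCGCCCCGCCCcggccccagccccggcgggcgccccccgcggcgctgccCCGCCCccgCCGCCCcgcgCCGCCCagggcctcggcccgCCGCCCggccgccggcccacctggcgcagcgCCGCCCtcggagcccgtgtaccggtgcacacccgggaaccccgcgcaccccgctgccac
Wnt6 (chr1:74771642-74771891, plus strand): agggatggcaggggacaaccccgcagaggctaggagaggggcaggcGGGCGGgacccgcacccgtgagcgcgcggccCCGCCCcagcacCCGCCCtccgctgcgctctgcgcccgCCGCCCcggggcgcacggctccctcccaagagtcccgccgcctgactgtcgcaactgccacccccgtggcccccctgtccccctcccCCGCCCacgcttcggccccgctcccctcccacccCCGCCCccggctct
The Wnt3a window held 9 matches and the Wnt6 window 6. Both windows are rich in G and C, at 87.6% and 79.6%, where the median over 32851 RefSeq starts was 52.4%, and 32.7% of all starts held at least 1 match. The sequence table held starts for 36 of the 56 WNT genes, 44 starts in all, of which 68.2% held a match. The TCF/LEF cores CTTTGAT and CTTTGTT, searched on both strands, were in neither window; 3.21% and 5.03% of all starts held them. The 3 RefSeq starts of Wnt5b held 1, 0 and 2 GC boxes, and the third of them also held 1 CTTTGAT. The window of Fzd9 held 1 GC box, and that of Dkk1 held 0 GC boxes and 1 CTTTGTT. The gene counts do not tell which start was used. A match is a run of letters and says nothing of binding in these samples.

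Wnt5b and Wnt6 were low in the double cKO. Wnt5b (ENSMUSG00000030170, chromosome 6, 119432531 to 119544347), often counted as acting without beta-catenin, had 39, 22, 26 and 9 counts, or 1.79, 1.71, 2.06 and 0.585 CPM. The Poisson interval of the double cKO (0.268 to 1.11 CPM) lay below those of wildtype and Sp8 cKO and overlapped that of Sp6 cKO, whose lower bound was 1.07 CPM. Against wildtype Wnt5b was 3.07-fold lower in the double cKO (95% interval 1.46 to 7.20), and within batch 1 it was 2.92-fold lower than in Sp6 cKO (1.29 to 7.20) and 3.53-fold lower than in Sp8 cKO (1.60 to 8.56). The gene passed within the batch as well as against wildtype, but all 3 ratios share the 9 counts of the double cKO and are not independent. Its paralog Wnt5a, which was far more abundant, had log2 ratios of -0.27, -0.16 and -0.03 in these 3 comparisons.

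Wnt6 (ENSMUSG00000033227, chromosome 1, 74771892 to 74785322), an epithelial ligand, had 61, 50, 38 and 28 counts, or 2.81, 3.88, 3.02 and 1.82 CPM. The highest library was Sp6 cKO and the lowest the double cKO, and only this pair passed the size rule, 2.13-fold (95% interval 1.316 to 3.51). Wnt10a, its neighbour 6193 bases away and a ligand of skin appendages, differed by a log2 ratio of 0.02 in that comparison. Wnt16 came near the threshold, at 4.74, 5.04, 4.45 and 2.79 CPM and a log2 ratio of -0.82 between the double cKO and Sp6 cKO. Wnt9b had a log2 ratio of -0.94 between the double cKO and Sp8 cKO from 8 and 14 counts, but its 95% interval, from 0.837-fold to 5.88-fold lower, included no difference.

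**Figure D3:**
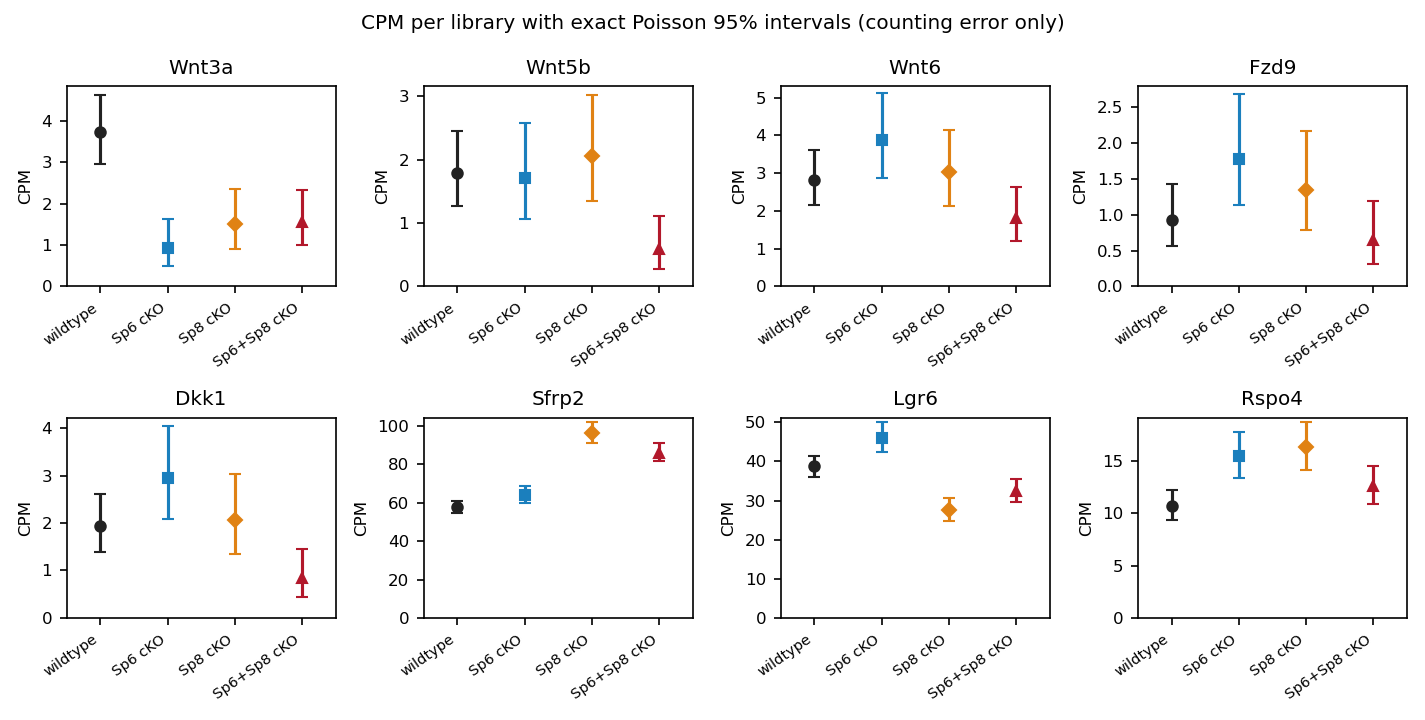
CPM of 8 WNT genes (vertical axes, each from 0) in the 4 libraries (horizontal axes), with bars for exact Poisson 95% intervals, which cover counting error only. Wildtype stands above the cKO libraries for Wnt3a (3.73 CPM against 0.930 to 1.56), the double cKO is the lowest library for Wnt5b, Wnt6, Fzd9 and Dkk1, and the intervals of Sfrp2 and Lgr6 are narrow beside the differences between libraries.

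The secretion machinery was close to level across the genotypes. Wls stood at 139.8, 134.2, 138.7 and 151.8 CPM, and Porcn at 24.97, 27.5, 25.7 and 30.7 CPM. Both were highest in the double cKO, where their log2 ratios to wildtype were 0.12 and 0.30.

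Frizzled receptors were abundant, and only the least abundant of them, Fzd9, passed the size rule. Per kilobase, Fzd6 led in wildtype at 25.9 CPM, followed by Fzd1 at 21.2 and Fzd7 at 19.4, and Fzd9 was lowest at 0.401. Fzd6 stood at 124.8, 108.6, 112.6 and 107.0 CPM, highest in wildtype, while Fzd1 (88.9, 94.0, 111.4 and 107.0 CPM) was lowest there. Per kilobase Fzd6 led narrowly in Sp6 cKO (22.5 against 22.4 for Fzd1), and Fzd1 led in Sp8 cKO (26.5 against 23.4 for Fzd6) and in the double cKO (25.5, before 23.9 for Fzd7 and 22.2 for Fzd6). Neither difference reached 1.5-fold. Fzd9 (ENSMUSG00000049551, chromosome 5, 135248938 to 135251230) had 20, 23, 17 and 10 counts, or 0.920, 1.78, 1.35 and 0.650 CPM, and was 2.74-fold lower in the double cKO than in Sp6 cKO (95% interval 1.26 to 6.46). All 4 of its Poisson intervals overlapped, those of these 2 libraries only narrowly (upper bound 1.195 CPM, lower bound 1.13 CPM). Its log2 ratio was near the threshold in Sp6 cKO against wildtype (0.87, 95% interval of the ratio 1.018 to 3.72). In the double cKO against Sp8 cKO it was -0.93, with an interval of the ratio from 0.197 to 1.11 that included 1. The other 9 Frizzled genes had log2 ratios to wildtype between -0.31 and 0.32. The co-receptors Lrp5 (148.5, 136.2, 149.9 and 126.3 CPM) and Lrp6 (143.7, 138.9, 140.0 and 141.3 CPM) were as even, with the largest log2 ratio to wildtype at -0.23 for Lrp5 in the double cKO.

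No measured R-spondin or Lgr gene passed the size rule, and the largest ratios were those of Rspo4 among the R-spondins and Lgr6 among the Lgr genes. Rspo4 led the R-spondins at 10.7, 15.4, 16.3 and 12.6 CPM, lowest in wildtype. Its ratio to wildtype was 1.44 in Sp6 cKO (95% interval 1.19 to 1.75), 1.52 in Sp8 cKO (1.25 to 1.84) and 1.18 in the double cKO (0.967 to 1.43). Lgr6 stood at 38.7, 46.1, 27.6 and 32.5 CPM, lower in both Sp8-targeted libraries than in the other 2. Within batch 1 Lgr6 was 1.67-fold lower in Sp8 cKO than in Sp6 cKO (95% interval 1.46 to 1.91) and 1.42-fold lower in the double cKO than in Sp6 cKO (1.26 to 1.60). Lgr4, at 114.7, 112.3, 120.6 and 124.5 CPM, and Lgr5, at 52.1, 49.1, 48.5 and 43.9 CPM, had log2 ratios between -0.24 and 0.15 in all 6 comparisons. At such counts small ratios also had intervals that excluded 1. In the double cKO against wildtype the interval of the ratio was 1.022 to 1.153 for Lgr4 and 0.766 to 0.929 for Lgr5.

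Among the secreted inhibitors, Dkk1 passed the size rule as lower in the double cKO, and Sfrp2 was the inhibitor with the largest ratio in Sp8 cKO. Dkk1 (ENSMUSG00000024868, chromosome 19, 30545863 to 30549665), which blocks Lrp5 and Lrp6, had 42, 38, 26 and 13 counts, or 1.93, 2.95, 2.06 and 0.845 CPM. The double cKO was the lowest and Sp6 cKO the highest, and their Poisson intervals did not overlap (0.450 to 1.45 CPM against 2.09 to 4.04). Dkk1 was 2.29-fold lower in the double cKO than in wildtype (95% interval 1.204 to 4.64), 3.49-fold lower than in Sp6 cKO (1.82 to 7.13) and 2.44-fold lower than in Sp8 cKO (1.21 to 5.18). These ratios all share the 13 counts of the double cKO and are not independent. Sost, which encodes sclerostin, another Lrp5 and Lrp6 antagonist made by osteocytes, stood at 4.65, 3.33, 4.68 and 1.89 CPM and was 2.47-fold lower in the double cKO than in wildtype (1.62 to 3.87). The 7 osteocyte markers, which include Sost, summed to 96.5, 92.8, 90.4 and 70.9 CPM and the 8 chondrocyte markers to 472.0, 484.1, 475.0 and 369.2 CPM, with Fgf23 and Col9a1 at 0 in at least 1 library. The 11 nail matrix and hair shaft markers found in the table summed to 4456, 4593, 5118 and 2338 CPM, and the 11 fibroblast markers to 16040, 15970, 15440 and 12750 CPM. These 4 sums were lowest in the double cKO. So were those of endothelial markers (286.9, 285.1, 321.6 and 248.3 CPM) and Schwann cell markers (132.6, 149.2, 146.1 and 125.8 CPM). Osteoblast markers (543.1, 642.0, 657.1 and 585.8 CPM) and macrophage markers (242.8, 330.3, 344.5 and 290.3 CPM) were lowest in wildtype. So were T cell markers (10.99, 27.29, 13.26 and 26.84 CPM) and erythroid markers (262.4, 336.0, 686.9 and 349.1 CPM). Sweat gland markers (570.3, 443.4, 460.5 and 476.4 CPM) were lowest in Sp6 cKO. Within the osteoblast list the double cKO was mixed against wildtype, with 5 of 8 markers below 0. Ibsp passed the size rule as higher, and Bglap and Bglap2 as lower, where 5.79% of all genes passed. Of the sweat gland markers, Krt77 and Aqp5 passed as lower there. So did 3 of 11 nail matrix and hair shaft markers (Krt33b, Krt82 and Vsig8), 2 of 6 measured chondrocyte markers (Col2a1 and Chad) and Sost. Of 5 measured T cell markers, 3 passed as higher (Cd3e, Cd3g and Trdc), as did Hba-a2 of the erythroid markers. No fibroblast, basal keratinocyte, endothelial, macrophage or Schwann cell marker passed. In Sp6 cKO against wildtype, Krt82 and Vsig8 had log2 ratios of -2.45 and -1.74. The part of these cell types in the Dkk1, Wnt5b and Wnt6 levels was not tested.

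Sfrp2, a secreted Frizzled-related protein that binds WNT ligands, led the inhibitors per kilobase in every library. It stood at 57.8, 64.0, 96.5 and 86.1 CPM, so both Sp8-targeted libraries were above the other 2. Its ratio to wildtype was 1.67 in Sp8 cKO (95% interval 1.54 to 1.81) and 1.49 in the double cKO (1.38 to 1.61), and within batch 1 it was 1.51 in Sp8 cKO against Sp6 cKO (1.38 to 1.65). Sfrp2 is a gene of fibroblasts, and the 11 fibroblast markers had a median log2 ratio to wildtype of 0.09 in Sp8 cKO (7 above 0 and 4 below) and -0.31 in the double cKO (2 above and 9 below). Their part in the Sfrp2 level was not tested. Sfrp2 had fractional estimated counts, as had Wnt5a, Wnt11, Fzd5, Notum and Lef1, and how their reads were divided is not given. Notum, an enzyme that removes the lipid of WNT proteins, stood at 3.04, 2.17, 1.83 and 3.05 CPM, and its ratio to wildtype in Sp8 cKO was 0.602 (95% interval 0.357 to 0.980). The other measured inhibitors (Dkk2, Dkk3, Sfrp1, Sfrp4, Sfrp5 and Wif1) had log2 ratios to wildtype between -0.39 and 0.25.

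At a lower bar of 1.5-fold (log2 ratio of 0.58), with the other conditions kept, the calls remained few. There were 2 of 48 in Sp6 cKO (all genes 9.17%), 4 of 49 in Sp8 cKO (8.21%) and 5 of 47 in the double cKO (13.9%) against wildtype, and within batch 1 there were 5 of 48, 3 of 49 and 2 of 49 (9.65%, 11.1% and 6.10%). The genes gained were Fzd9, higher in Sp6 cKO than in wildtype; Rspo4 and Sfrp2, higher, and Notum, lower, in Sp8 cKO than in wildtype; and Wnt3 and Wnt16, lower in the double cKO than in wildtype. Within batch 1, Wnt16 was gained as lower in the double cKO against each single knockout, and Lgr6 (lower) and Sfrp2 (higher) in Sp8 cKO against Sp6 cKO. Wnt3, an epithelial ligand, stood at 22.9, 19.4, 18.9 and 14.8 CPM, and at 1.55-fold lower in the double cKO than in wildtype (95% interval 1.319 to 1.82).

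**Figure D4:**
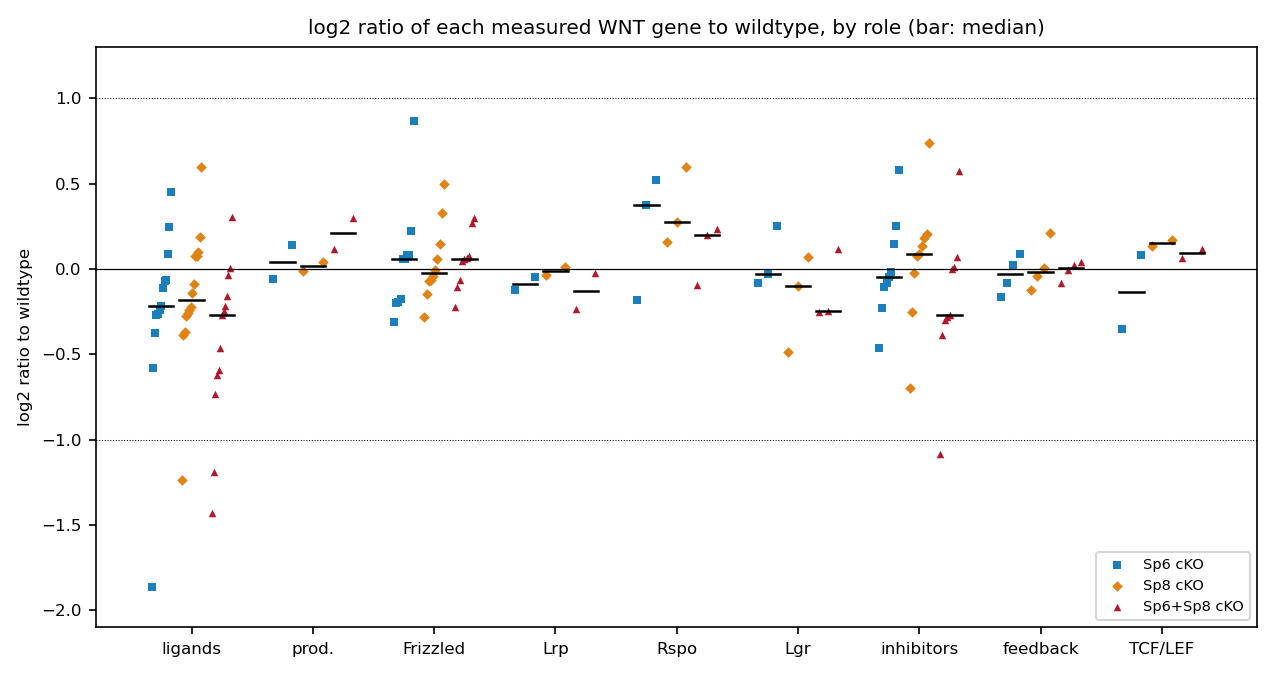
Each point is the log2 ratio of 1 measured WNT gene to wildtype (vertical axis) in each of the 3 cKO libraries, grouped by role (horizontal axis); black bars are medians and dotted lines mark 1 and -1. The ligand medians lie at -0.22, -0.18 and -0.27 and the feedback medians at -0.03, -0.02 and 0.01.

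The 4 feedback genes differed by less than 1.5-fold between any 2 libraries. Axin2, a scaffold of the beta-catenin destruction complex and a direct target, stood at 34.5, 36.6, 34.7 and 35.1 CPM. Znrf3 stood at 89.7, 84.8, 87.1 and 84.8 CPM and Rnf43 at 49.4, 50.2, 45.3 and 49.1 CPM. Nkd1, a Dishevelled-binding feedback inhibitor, was the most variable of the 4 at 19.2, 17.1, 22.2 and 19.8 CPM. Their log2 ratios to wildtype lay between -0.16 and 0.21, and none passed even the 1.5-fold bar. Of the transcription factors, Tcf7 stood at 51.8, 54.9, 58.3 and 56.2 CPM and Lef1 at 40.0, 31.3, 43.9 and 41.9 CPM, where Sp6 cKO was the low library for Lef1 with a log2 ratio to wildtype of -0.35.

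The other genes of the pathway were counted by the same rule, under which 4.40%, 3.82% and 5.79% of all genes passed against wildtype and 3.97%, 4.68% and 3.10% within batch 1. The lists are too short for a count of 0 or 1 to differ visibly from those shares. Of 32 intracellular relay genes, which include beta-catenin (Ctnnb1, 595.8, 562.5, 590.5 and 541.2 CPM), Apc, Axin1 and the Dishevelled genes, 0 passed the size rule in any comparison, with log2 ratios to wildtype between -0.51 (Ctnnbip1, an inhibitor of beta-catenin, in the double cKO) and 0.37. Of 20 planar polarity genes and alternative receptors, 0 passed against wildtype, and Celsr3, an atypical cadherin, was the 1 that passed within batch 1, 2.06-fold lower in the double cKO than in Sp8 cKO (95% interval 1.33 to 3.22). Of 19 other measured genes often used as WNT targets, 0 passed in any comparison. Among these, Myc stood at 62.8, 87.2, 83.8 and 90.5 CPM, lowest in wildtype, and Edar, the ectodysplasin receptor, at 2.48, 2.40, 2.46 and 1.56 CPM, lowest in the double cKO. Of the other extracellular modulators, Sost was the 1 that passed against wildtype, in the double cKO, where 18 were measured. Within batch 1 Sost also passed against Sp8 cKO (2.49-fold lower, 95% interval 1.57 to 4.02), and Tmem198, a membrane protein that aids Lrp6 phosphorylation, was 2.93-fold lower in Sp8 cKO than in Sp6 cKO, from 5 and 15 counts (1.01 to 10.3).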

How the data were processed

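Per the labels' protocols, messenger RNA was selected by its poly-A tail, and paired-end, strand-specific libraries were sequenced. Tools named in the submitters' processing notes are Salmon, STAR, featureCounts, Trim Galore 0.6.4, deepTools and edgeR, with no settings, and the build is GRCm38. The authors deposited estimated counts per gene, not scaled for depth, from an annotation whose release is not stated in the labels. Of the table's columns, 1 fits none of the samples and was left out. Counts were rounded and scaled by TMM (edgeR 4.0.16, R 4.3.3), and log2 ratios used a prior count of 2. Ratio intervals are Clopper-Pearson, conditional on the sum of both counts, and level intervals are exact Poisson (scipy 1.17.1). Both are at 95% and cover counting error only, since PCR reads without molecular identifiers are not independent molecules. A count of 3 corresponds to between 0.138 and 0.238 CPM. Positions and exon lengths came from GENCODE M21 (GRCm38), which held all 56 genes. Promoter sequences are RefSeq's (GRCm38.p6). The procedure was tested on simulated data. Known fold changes were given there only to genes of higher counts than the WNT genes past the size rule. Recovery of a change at such low counts was therefore not tested. The text names WNT genes past the size rule, near it or with the 3 largest ratios per comparison, and the leading genes of each role. The members, gene lists and rules were chosen with earlier results of these data known. Alternatives were DESeq2 1.42.0 size factors, library totals, prior counts of 0.5 and 5, CPM filters of 5 and none, and a 1.5-fold threshold.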

Additional observations from a re-analysis of the deposited data

Results flagged for a closer look

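The ratio of a knockout was read against wildtype and, separately, with the other gene also targeted, and for 5 WNT genes the 2 point values had opposite signs while 1 of them passed the size rule. An opposite direction is not shown for any of them, because the value that did not pass had a counting interval that included no difference. The difference between the 2 values was not tested against variation between animals, since each value compares 1 library with 1 library. The wildtype library alone is of batch 3. The pairs also do not carry the same loss of Sp6, which stood at 57.8 CPM in the double cKO against 29.2 in Sp6 cKO. For Dkk1, Sp6 cKO gave a log2 ratio of 0.58 to wildtype (95% interval of the ratio 0.957 to 2.42), and the double cKO gave -1.17 to Sp8 cKO. Sp8 cKO gave 0.0898 to wildtype for Dkk1 (0.629 to 1.78), and the double cKO -1.66 to Sp6 cKO. For Wnt3a, Sp6 cKO gave -1.86 to wildtype and the double cKO 0.0447 to Sp8 cKO (0.543 to 2.00), and Sp8 cKO gave -1.24 to wildtype and the double cKO 0.67 to Sp6 cKO (0.806 to 3.68). The remaining pairs set Sp8 cKO against wildtype and the double cKO against Sp6 cKO. Wnt5b gave 0.19 (0.673 to 1.94) and -1.36, Wnt6 gave 0.10 (0.698 to 1.64) and -1.04, and Fzd9 gave 0.50 (0.722 to 2.95) and -1.30. Both pairs of a gene come from the same 4 counts and are not independent.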

How the results depend on the processing

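The counts of WNT genes past the size rule, their median log2 ratios and the larger ratios of single WNT genes were recomputed. This was done under those of the 7 alternatives that applied to each. DESeq2 size factors, library totals and both other prior counts kept each count of WNT genes past the size rule within 1.5 times its main value, and scaling moved no WNT gene's log2 ratio by more than 0.0402. With a prior count of 5, Dkk1 in the double cKO against wildtype (-0.95) and Wnt6 in the double cKO against Sp6 cKO (-0.97) no longer passed. At a CPM of at least 5 the counts were 0 in all 6 comparisons, since all 5 genes past the rule lie below that level; of all genes, between 1.07% and 2.98% passed there, which for 37 or 38 measured WNT genes is about 1 call or fewer. Against wildtype, with no CPM filter, the counts were 3, 2 and 4 for the Sp6, the Sp8 and the double cKO. The main counts were 1, 1 and 3. Without the filter, 1 call in Sp6 cKO and 1 in the double cKO were higher, and the others lower. Of all genes, 4.27%, 3.84% and 5.63% passed there. At 1.5-fold the counts against wildtype were 2, 4 and 5 in the same order. In Sp8 cKO against Sp6 cKO the count at 1.5-fold was 2, instead of 0. No paired analysis was possible because each group had 1 library, and for the same reason no replicate could be left out.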

Other observations

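Below 1 CPM, where the text made no calls, Rspo2, an R-spondin of hair follicle and limb mesenchyme, had 15 counts in wildtype, 2 in each single cKO and 7 in the double cKO. Dkk4, a target and inhibitor of WNT signalling in skin appendages, had 6 counts in Sp6 cKO (0.465 CPM) and 6 in the double cKO (0.390 CPM), against 1 for wildtype (0.0460 CPM) and 2 for Sp8 cKO (0.159 CPM). The ligand genes Wnt3 and Wnt9b lie 24328 bases apart on chromosome 11, and their log2 ratios in the double cKO against wildtype were -0.62 and -0.34. In Sp8 cKO against wildtype they were -0.28 and 0.60. The Wnt9b values come from 15 counts in wildtype, 14 in Sp8 cKO and 8 in the double cKO. In both comparisons Wnt9b passed neither the size rule nor the 1.5-fold bar.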
